A study of Homo sapiens with 27 samples.

Results

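The genes described here are the MAPK feedback genes DUSP4, DUSP5, DUSP6, SPRY1, SPRY2, SPRY4, SPRED1, SPRED2, ETV4 and ETV5, read in SHP77 cells, which were grown out of a human small cell lung cancer. They were taken by symbol from 2 deposited expression tables, in which all 10 were listed among 41686 human genes (total RNA, shRNA libraries) and 34742 human genes (poly(A) RNA, siRNA libraries). In the shRNA table, cells stably carried circRMST shRNA 1 or circRMST shRNA 2 (n = 2 libraries each), aimed at circRMST, a circular transcript of RMST, a gene for long non-coding RNA, while control cells carried shGFP (n = 2). Puromycin (3 µg/ml, 3 days or longer) had selected the cells that carried each vector. In the siRNA table, cells were harvested 72 hours after lipid transfection with SOX2 siRNA 1 or 2 (n = 2 each), NKX2-1 siRNA 1 or 2 (n = 2 each) or si-control (n = 3). SOX2 and NKX2-1 are transcription factors that the series text reports to bind circRMST. Every group was the same line, so nothing here speaks to other tumours, and each knockdown rests on 2 reagents. Replicates are called biological in the series text, but nothing says that they were separate cultures, so p-values measure the spread between these libraries only.

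The MAP kinase cascade carries signals of growth factor receptors through RAS, RAF and MEK to the kinase ERK. Active ERK switches on genes whose products hold the cascade back, and the RNA of these feedback genes is widely used as a readout of ERK output. DUSP4, DUSP5 and DUSP6 encode phosphatases that remove the activating phosphates from MAP kinases, DUSP5 in the nucleus and DUSP6 in the cytoplasm. SPRY1, SPRY2 and SPRY4 encode Sprouty proteins, which damp signalling between receptors and RAF. SPRED1 and SPRED2 encode relatives of Sprouty, and SPRED1 brings neurofibromin, which switches RAS off, to the membrane. ETV4 and ETV5 encode ETS transcription factors that are made in response to FGF and ERK signals.

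Promoter windows are shown for 3 members whose RNA differed in distinct ways between the knockdowns: DUSP6, SPRY1 and SPRED1. Each is the 250 bases before the annotated gene start, from RefSeq on GRCh38.p14, written 5′ to 3′ on the strand of the gene. Capitals mark GGAA, the core that ETS factors such as ETV4 and ETV5 recognise, or its complement TTCC. The windows are chr12:89352502-89352751 on the minus strand (DUSP6), chr4:123396545-123396794 on the plus strand (SPRY1) and chr15:38252586-38252835 on the plus strand (SPRED1).
DUSP6: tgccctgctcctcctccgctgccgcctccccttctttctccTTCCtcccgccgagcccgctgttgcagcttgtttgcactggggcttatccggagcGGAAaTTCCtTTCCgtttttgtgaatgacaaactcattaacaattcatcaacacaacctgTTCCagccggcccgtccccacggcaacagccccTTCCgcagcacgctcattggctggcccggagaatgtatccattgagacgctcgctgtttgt
SPRY1: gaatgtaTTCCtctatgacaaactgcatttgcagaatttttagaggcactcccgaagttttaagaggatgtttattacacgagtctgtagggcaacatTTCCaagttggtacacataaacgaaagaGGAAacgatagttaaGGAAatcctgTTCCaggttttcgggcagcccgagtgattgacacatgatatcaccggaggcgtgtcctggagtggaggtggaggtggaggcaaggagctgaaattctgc
SPRED1: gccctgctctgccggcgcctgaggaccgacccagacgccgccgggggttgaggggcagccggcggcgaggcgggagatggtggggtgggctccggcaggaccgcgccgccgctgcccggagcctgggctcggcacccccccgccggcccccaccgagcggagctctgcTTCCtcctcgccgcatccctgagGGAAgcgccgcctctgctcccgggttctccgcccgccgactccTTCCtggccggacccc

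The DUSP6 window held 6 matches to GGAA on either strand, and 9.14% of 35114 RefSeq windows of this length held at least that number. The SPRY1 window held 5, and 18.6% of windows held at least that number. The SPRED1 window held 3, the median over all windows. GGAA itself occurred in 92.7% of windows. TNAATGAA, which the ERK-controlled repressor Capicua binds (found in 3.91% of windows), ACAAAG or ACAATG, forms of the SOX core (21.2%), and CAAGTG, an NKX2-1 core (9.5%), were searched on both strands and were not in the 3 windows shown. These are descriptions of letters, and binding was not measured here. A window at the gene start was given for 5 of the 10 members. Of these, only the SPRED2 window, not shown, held a Capicua, SOX or NKX2-1 motif: ACAAAG, 57 bases before the start.

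Levels are normalized counts, which are not scaled by gene length, so that they compare libraries and not genes. Recovered depth per library was 46.9e6 to 57.4e6 reads (shRNA) and 15.5e6 to 50.1e6 reads (siRNA). Each member had 171 to 5021 reads per shRNA library and 187 to 14493 per siRNA library, so none of them sat near the limit of detection. Changes are differences on the log2 scale of the normalized count plus 1, fitted with limma over all libraries of a table, averaged over the 2 reagents of a knockdown unless a single one is named. Adjusted p-values are those of limma with Benjamini-Hochberg adjustment over all genes tested (19068 for the shRNAs, 16750 for the siRNAs), two-sided, and a gene was called below 0.05. All 10 members passed the filter on low values in both tables. Because the samples were bulk RNA, fewer cells of a kind and less RNA per cell cannot be told apart.

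The members lie on 10 chromosomes (GRCh38.p14). DUSP4 (ENSG00000120875.8) spans chromosome 8, 29333064 to 29350684, DUSP5 (ENSG00000138166.5) chromosome 10, 110497907 to 110511533, and DUSP6 (ENSG00000139318.7) chromosome 12, 89347235 to 89352501. SPRY1 (ENSG00000164056.10) spans chromosome 4, 123396795 to 123403760, SPRY2 (ENSG00000136158.11) chromosome 13, 80335976 to 80341126, and SPRY4 (ENSG00000187678.8) chromosome 5, 142310430 to 142325021. SPRED1 (ENSG00000166068.12) spans chromosome 15, 38252836 to 38357249, and SPRED2 (ENSG00000198369.9) chromosome 2, 65307175 to 65432599. ETV4 (ENSG00000175832.12) spans chromosome 17, 43527846 to 43546340, and ETV5 (ENSG00000244405.7) chromosome 3, 186046314 to 186109089. The annotation places POC1B-DUSP6 over DUSP6, SPRY4-IT1 within SPRY4, DHX8 over part of ETV4, and ETV5-AS1 and LOC124909470 within ETV5. The siRNA libraries came from a kit that does not mark strand. Whether the counting of the stranded shRNA libraries used strand was not given in the sources used here. Reads of these overlapping genes could therefore not be separated from those of the members.

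Knockdown was checked at the targeted genes. SOX2 was at 393 ± 5.10 and 452 ± 19.1 with SOX2 siRNA 1 and 2 (SD, n = 2 each), against 1142 ± 54.0 in si-control (n = 3). NKX2-1 was at 1014 ± 78.6 and 816 ± 28.5 with NKX2-1 siRNA 1 and 2 (n = 2 each), against 2234 ± 110.0 in si-control. RMST is counted as a whole gene, so its count does not separate the circle from other RMST RNA. It was not called with circRMST shRNAs (-0.12, SE 0.13, adjusted p = 0.478). Nor was it called with shRNA 1 alone (-0.07) or shRNA 2 alone (-0.16). Knockdown of the circle itself could therefore not be read here. SOX2 RNA was higher with NKX2-1 siRNAs (0.96, SE 0.05, adjusted p = 1.43e-14), and NKX2-1 RNA was higher with SOX2 siRNAs (0.21, SE 0.05, adjusted p = 0.000650). With circRMST shRNAs SOX2 RNA was higher (0.24, SE 0.06, adjusted p = 0.00238) and NKX2-1 RNA was lower (-0.41, SE 0.08, adjusted p = 0.000166). With the single shRNAs NKX2-1 was lower with shRNA 1 (-0.62) and not called with shRNA 2 (-0.19, adjusted p = 0.0950). SOX2 was not called with shRNA 1 (0.14, adjusted p = 0.121) and was higher with shRNA 2 (0.35). Neuroendocrine markers, which define this tumour type, summed to 39763 to 80864 per shRNA library and 73133 to 86950 per siRNA library. Fibroblast markers summed to 425 to 877 and 145 to 536 in these tables and blood and endothelial markers to 164 to 424 and 96.1 to 507, with COL1A2, COL3A1 and HBB at 0 in some libraries.

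With circRMST shRNAs SPRED1, SPRY2 and SPRY4 rose and ETV5 fell, each with both shRNAs. SPRY1 and SPRED2 rose and ETV4 fell on average and with shRNA 1, but these 3 were not called with shRNA 2. The phosphatases were not called on average. 7 of the 10 members were called, 5 higher and 2 lower, where 53.7% of all genes tested were called (27.8% higher and 25.9% lower). The members' count is therefore near a background in which most genes moved. The median log2 change of the members was 0.07, against 0.0015 over all genes tested. The libraries of the groups did not overlap for 5 members, as for 56.7% of all genes.

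**Figure D1:**
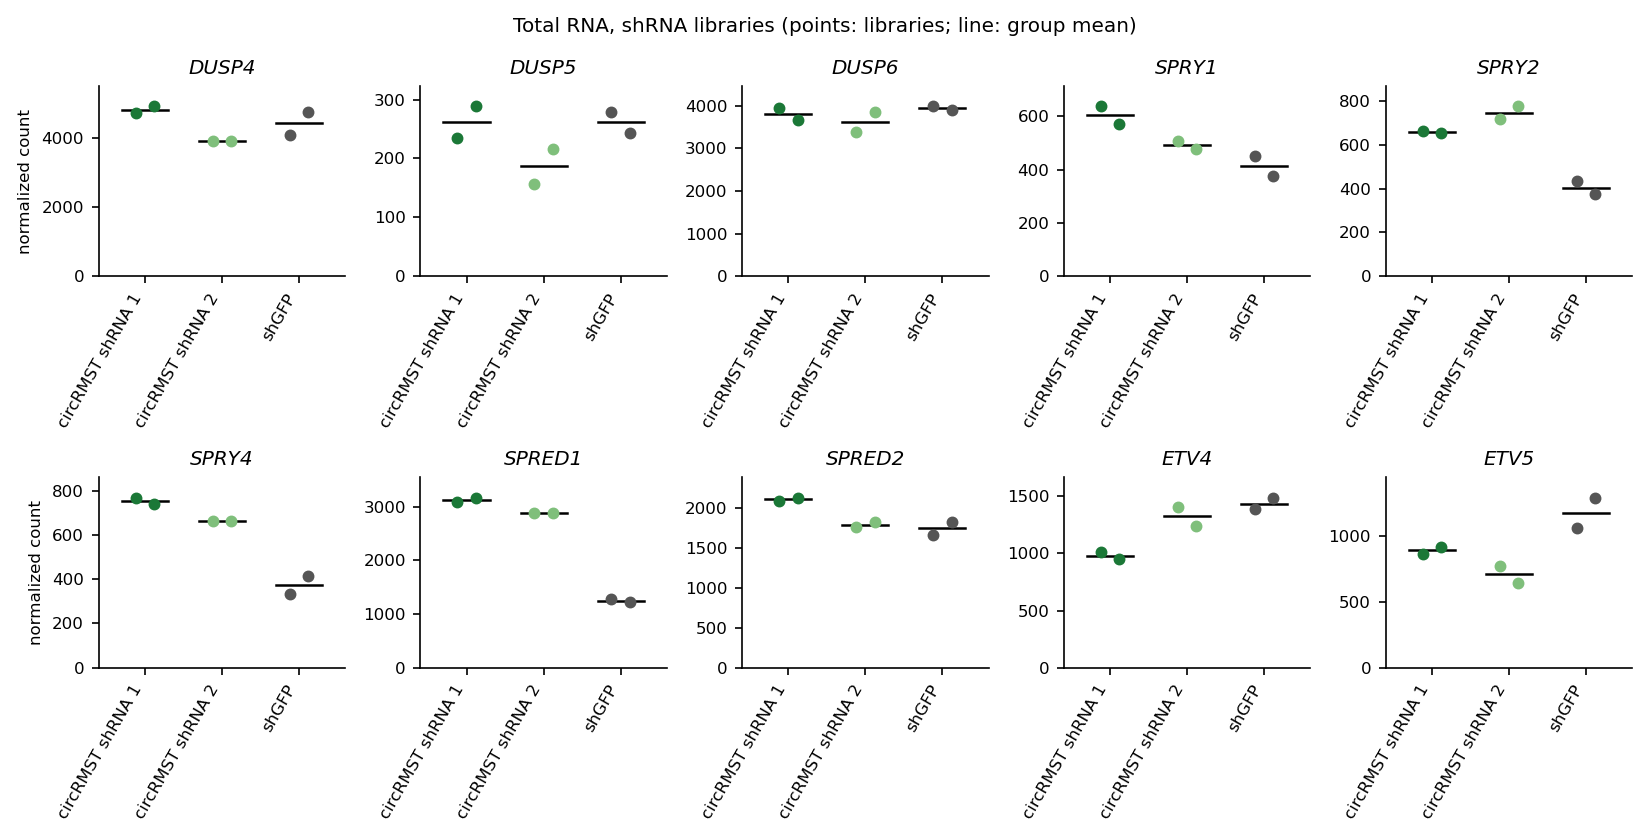
Normalized counts (vertical axes, from 0, a separate scale per gene) of the 10 members in the 6 shRNA libraries, with circRMST shRNA 1, circRMST shRNA 2 and shGFP from left to right. Points are libraries and lines are group means; SPRED1 lay at 2872 to 3162 in knockdown libraries and at 1216 and 1277 in shGFP, while DUSP6 overlapped.

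SPRED1 had 3082 and 3162 normalized counts with circRMST shRNA 1 and 2873 and 2872 with shRNA 2, against 1277 and 1216 in shGFP. All 4 knockdown libraries were over 2 times either control library. The log2 change was 1.26 (SE 0.06, adjusted p = 2.29e-14), a 2.40-fold rise. The other SPRED gene, SPRED2, had 2096 and 2132 counts with shRNA 1 and 1761 and 1830.5 with shRNA 2, against 1666 and 1834 in shGFP. Its shRNA 2 libraries lay within the range of the controls. Its average change of 0.16 (SE 0.06, adjusted p = 0.0428) lost its call under most of 18 alternatives. Among these were equal library totals (0.01, adjusted p = 0.898), quantile normalization (0.07, adjusted p = 0.343) and shRNA 2 alone (0.04, adjusted p = 0.694). The call was also lost with no filter (adjusted p = 0.0747), under edgeR (adjusted p = 0.0711) and under DESeq2 (adjusted p = 0.124). Without shGFP replicate 1 the change was 0.09.

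The 3 Sprouty genes were higher in every circRMST knockdown library than in either control library. SPRY4, which acts on receptor signals upstream of RAF, had 768 and 739 counts with shRNA 1 and 663 and 665 with shRNA 2, against 332 and 414 in shGFP (0.93, SE 0.10, adjusted p = 3.70e-08). SPRY2, which also acts on receptor turnover, had 662 and 654 counts with shRNA 1 and 719 and 776 with shRNA 2, against 436 and 374 in shGFP (0.79, SE 0.10, adjusted p = 2.15e-07). SPRY1 had 637 and 570.2 counts with shRNA 1 and 506 and 477 with shRNA 2, against 449 and 377 in shGFP (0.40, SE 0.10, adjusted p = 0.00217). SPRY1 stood closest to its controls, and its call was lost with shRNA 2 alone (0.26, adjusted p = 0.0831) and when shGFP replicate 2 was left out (0.28, adjusted p = 0.0817).

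ETV5 had 868 and 920.3 counts with circRMST shRNA 1 and 774 and 647 with shRNA 2, against 1063 and 1293 in shGFP. Every knockdown library was below both controls, and the log2 change was -0.56 (SE 0.09, adjusted p = 1.74e-05). ETV4, the related ETS factor, had 1009 and 948 counts with shRNA 1 and 1408 and 1241 with shRNA 2, against 1387 and 1486 in shGFP (-0.34, SE 0.07, adjusted p = 0.000559). The fall of ETV4 was seen with shRNA 1 (-0.55, adjusted p = 1.02e-05); with shRNA 2 it was not called (-0.12, adjusted p = 0.268), and 1 shRNA 2 library lay between the controls.

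None of the 3 phosphatase genes was called on average. DUSP6 had 3947 and 3665 counts with shRNA 1 and 3389.7 and 3858 with shRNA 2, against 3986 and 3908 in shGFP (-0.09, SE 0.06, adjusted p = 0.210). DUSP4 had 4717 and 4910.4 counts with shRNA 1 and 3914 and 3923 with shRNA 2, against 4097 and 4752 in shGFP, so the 2 shRNAs lay on opposite sides of the controls' mean (-0.02, SE 0.06, adjusted p = 0.767). DUSP5 had 235 and 289 counts with shRNA 1 and 157 and 216 with shRNA 2, against 279 and 244 in shGFP (-0.25, SE 0.15, adjusted p = 0.171). With shRNA 2 alone DUSP4 (-0.17, adjusted p = 0.0397) and DUSP5 (-0.50, adjusted p = 0.0228) were called lower, and with shRNA 1 alone none of the 3 was called. DUSP6 was called lower under quantile normalization (-0.17, adjusted p = 0.0163). With library totals set equal, which shifts the median of all genes by -0.15, all 3 were called lower (DUSP4 -0.17, DUSP5 -0.40 and DUSP6 -0.24); that scaling turned the split of all genes to 3635 higher and 6589 lower, against 5294 higher and 4936 lower with the deposited scaling. Changes of this size are thus read relative to that shift.

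The 2 circRMST shRNAs differed from each other at 4 of the 10 members (19.1% of all genes, 10.9% higher and 8.20% lower with shRNA 1). DUSP4 (0.30, adjusted p = 0.00267), ETV5 (0.34, adjusted p = 0.0266) and SPRED2 (0.24, adjusted p = 0.0271) were higher with shRNA 1 than with shRNA 2, and ETV4 was lower (-0.43, adjusted p = 0.000810). SPRED1, SPRY2 and SPRY4 were called higher with each shRNA alone and ETV5 lower with each. In single comparisons with shGFP, 7 members were called with shRNA 1 (51.0% of all genes, 26.7% higher and 24.2% lower) and 6 with shRNA 2 (47.4% of all genes, 24.5% higher and 22.9% lower).

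Other genes of the pathway were read from 5 lists. Their counts are read beside the 53.7% of all genes tested that were called with circRMST shRNAs (27.8% higher and 25.9% lower). Of 9 tested inhibitors of receptors and RAS, 5 rose and 0 fell: ERRFI1, which binds and blocks EGF receptors, by 0.99, PEBP1, the RAF kinase inhibitor, by 0.47, NF1, the RAS GTPase-activating neurofibromin, by 0.38, and also LZTR1 and SPRED3. Of 5 other phosphatase genes, DUSP16 rose (0.37) while DUSP1, an immediate early gene, fell (-0.79), as did DUSP10 (-0.22). DUSP1 fell by 0.21 with shRNA 1 and by 1.37 with shRNA 2, DUSP16 was not called with shRNA 2 alone (0.17, adjusted p = 0.191), and DUSP10 not with shRNA 1 alone (adjusted p = 0.0719). Of 20 cascade components, 9 rose, among them the scaffold KSR1 (1.03), the FGF receptor adaptor FRS2 (0.71) and SHOC2 (0.53), and 5 fell. Of 11 other ERK target genes, 2 rose and 6 fell, among them EGR3 (-2.82), EPHA2 (-1.44) and EGR1 (-0.81). EGR1 was lower with shRNA 1 alone (-1.49) and not called with shRNA 2 alone (-0.13, adjusted p = 0.597), and EPHA2 was not called with shRNA 2 alone (-1.32, adjusted p = 0.0696). Of 12 FGF receptors and ligands, 2 rose and 6 fell. FGF1 had 395 ± 178 counts (SD, n = 4) with circRMST shRNAs, against 38.9 ± 20.1 in shGFP (n = 2), and FGFR3 had 1.05 ± 2.09 with circRMST shRNAs, against 54.4 ± 13.0 in shGFP. The n = 4 takes in both shRNAs, and FGF1 rose by 3.87 with shRNA 1 alone and by 2.70 with shRNA 2 alone. List medians were 0.33 for the inhibitors, -0.22 for the phosphatases, 0.19 for the cascade, -0.51 for the ERK targets and -0.83 for the FGF list, beside 0.0015 over all genes.

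The shGFP libraries stood apart at low levels. Among 1547 coding genes that no siRNA library detected, the 4 circRMST libraries detected 14.7% to 20.5%, and shGFP replicates 1 and 2 detected 82.4% and 85.6%. The excess in shGFP had a median of 4.03 normalized counts and a 99th percentile of 38.7. The falls of ETV4 (-286 counts), ETV5 (-376 counts), EGR3 (-67.2) and FGFR3 (-53.4) were larger than that 99th percentile. Those of EPHA2 (-21.5) and FGF8 (-21.6) were smaller. The excess was measured in genes that no siRNA library detected, so it sets no bound for expressed genes. Among markers, 6 of 9 neuroendocrine genes were called lower with circRMST shRNAs and 2 higher, where 25.9% of all genes tested were lower and 27.8% higher. Of 4 tested fibroblast markers 3 were lower and 1, LUM, was higher, at 362 to 797 counts in knockdown libraries, against 97.8 and 121 in shGFP. COL1A2 and COL3A1 were at 0 with shRNA 1. Blood and endothelial markers summed to 164 to 207 counts in knockdown libraries, against 416 to 424 in shGFP. The part of these differences in the results above was not tested.

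With SOX2 siRNAs the 3 Sprouty genes, the 3 phosphatases and ETV5 fell and no member rose. 7 of the 10 members were called lower and 0 higher, where 56.3% of all genes tested were called (27.6% higher and 28.7% lower). The members' median log2 change was -0.20, against 0.0071 over all genes. Groups did not overlap for 6 members, as for 49.5% of all genes. SPRY1 and DUSP5 had the largest changes among the members.

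**Figure D2:**
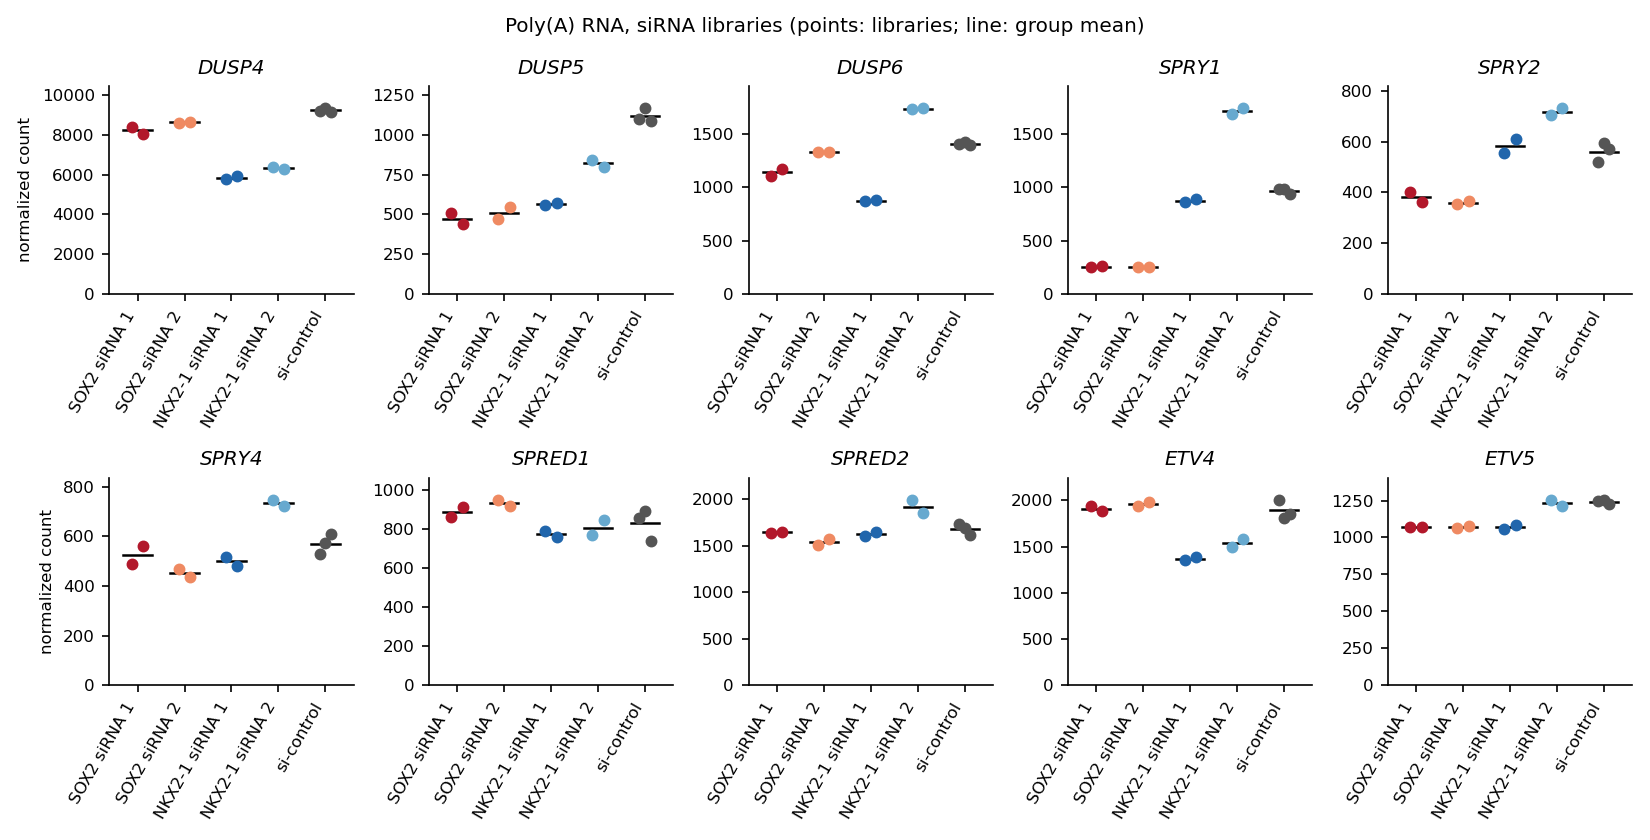
Normalized counts (vertical axes, from 0, a separate scale per gene) of the 10 members in the 11 siRNA libraries, with SOX2 siRNA 1 and 2, NKX2-1 siRNA 1 and 2 and si-control from left to right. Points are libraries and lines are group means; SPRY1 lay at 249.8 to 257 with SOX2 siRNAs, and DUSP6 lay on opposite sides of si-control with the 2 NKX2-1 siRNAs.

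SPRY1 had 249.8 and 257 counts with SOX2 siRNA 1 and 256 and 251 with siRNA 2, against 983, 986 and 936 in si-control. The 4 knockdown libraries lay close together and far below the controls. The log2 change was -1.93 (SE 0.06, adjusted p = 1.39e-20), a 3.81-fold fall, beside -1.43 (SE 0.05) for SOX2 itself. The 2 siRNAs gave nearly the same change, -1.93 each, and their difference was 0.0014 (SE 0.07, adjusted p = 0.993). SPRY2 had 401 and 362 counts with siRNA 1 and 354 and 365 with siRNA 2, against 519, 593 and 569 in si-control (-0.60, SE 0.07, adjusted p = 1.89e-08). SPRY4 had 490.4 and 560.4 counts with siRNA 1 and 467 and 435 with siRNA 2, against 528, 573 and 609 in si-control (-0.23, SE 0.07, adjusted p = 0.00527). Its siRNA 1 libraries overlapped the controls, and its call was lost with siRNA 1 alone (-0.12, adjusted p = 0.225) and without si-control replicate 3 (-0.18, adjusted p = 0.0520).

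Among the phosphatases, DUSP5, the nuclear ERK phosphatase, had 509 and 436 counts with SOX2 siRNA 1 and 469 and 544 with siRNA 2, against 1098, 1167 and 1085 in si-control. All knockdown libraries lay well below the controls (-1.19, SE 0.06, adjusted p = 6.23e-15, a 2.29-fold fall). DUSP6 fell less, with 1111 and 1176 counts with siRNA 1 and 1329 and 1334 with siRNA 2, against 1409, 1427 and 1398 in si-control (-0.19, SE 0.04, adjusted p = 0.000450). It was not called with siRNA 2 alone (-0.08, adjusted p = 0.193). DUSP4 had 8416 and 8052 counts with siRNA 1 and 8622 and 8625 with siRNA 2, against 9201, 9339.5 and 9143 in si-control (-0.13, SE 0.03, adjusted p = 0.000484). These last 2 falls were small. For each, all 4 knockdown libraries, from 2 siRNAs, lay below the controls, where groups did not overlap for 49.5% of all genes.

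ETV5 had 1073 and 1074 counts with SOX2 siRNA 1 and 1067 and 1075 with siRNA 2, against 1244, 1255 and 1226 in si-control (-0.21, SE 0.04, adjusted p = 0.000222). ETV4 was not called, with 1939.5 and 1883 counts with siRNA 1 and 1936 and 1986 with siRNA 2, against 2007, 1813 and 1853 in si-control (0.04, SE 0.04, adjusted p = 0.517). SPRED1 lay at the threshold, with 859 and 913 counts with siRNA 1 and 948 and 918 with siRNA 2, against 855, 889.6 and 737 in si-control (0.14, SE 0.06, adjusted p = 0.0503). It was called higher without si-control replicate 2 (0.20, adjusted p = 0.0184), without SOX2 siRNA 1 replicate 1 (0.16, adjusted p = 0.0225) and with siRNA 2 alone (0.18, adjusted p = 0.0432). Changes of processing also called SPRED1 higher: pseudocount 5 (adjusted p = 0.0488), a filter at a mean of 50 (adjusted p = 0.0473), equal library totals (adjusted p = 0.0451) and quantile normalization (adjusted p = 0.0372). SPRED2 was not called, with 1643 and 1647 counts with siRNA 1 and 1511 and 1577 with siRNA 2, against 1737, 1688 and 1618 in si-control (-0.08, SE 0.04, adjusted p = 0.135). Under quantile normalization SPRED2 was called lower (-0.13, adjusted p = 0.0146).

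The SOX2 siRNAs differed from each other at 1 member, DUSP6 (-0.22, SE 0.06, adjusted p = 0.00707), where 18.5% of all genes differed (8.08% higher and 10.4% lower with siRNA 1). Alone, siRNA 1 gave 6 members lower (53.1% of all genes called, 25.8% higher and 27.3% lower). SOX2 siRNA 2 gave 6 lower and 1 higher (49.1% of all genes, 24.4% higher and 24.7% lower). DUSP4, DUSP5, SPRY1, SPRY2 and ETV5 were called lower with each.

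List and marker counts are read beside the 56.3% of all genes tested that were called with SOX2 siRNAs (27.6% higher and 28.7% lower). In the 5 pathway lists, 4 of 9 tested inhibitors fell and 2 rose with SOX2 siRNAs. ERRFI1 fell by 1.60 and SPRED3, the third SPRED gene, by 0.75, while RASA1, a RAS GTPase-activating protein, rose by 0.55. Of 6 other phosphatase genes 1 rose (DUSP1, 0.16) and 1 fell (DUSP8, -0.50, not called with siRNA 1 alone at -0.22). Of 20 cascade components 9 rose, among them NRAS (0.95) and the adaptor GRB2 (0.35), and 4 fell, among them the kinase MAP2K1 (-0.38). MAP2K1 was higher with siRNA 1 alone (0.13, adjusted p = 0.0181) and lower with siRNA 2 alone (-0.89). Of 11 other ERK targets 6 fell, among them EPHA2 (-1.73), IER3 (-0.996) and the cyclin gene CCND1 (-0.87), and 2 rose. Of 10 FGF receptors and ligands 6 fell and 0 rose: FGF1 had 4.40 ± 2.29 counts (SD, n = 4) with SOX2 siRNAs, against 91.0 ± 23.3 in si-control (n = 3), and FGF21 (-1.57) and FGF17 (-1.14) were also lower. The n = 4 takes in both siRNAs, and FGF1 changed by -4.62 with siRNA 1 alone and by -3.76 with siRNA 2 alone. The list medians were -0.13 (inhibitors), 0.03 (phosphatases), 0.09 (cascade), -0.69 (ERK targets) and -0.66 (FGF), beside 0.0071 over all genes. Of 9 neuroendocrine markers 2 were higher and 5 lower. Of 3 tested fibroblast markers 2, LUM and PDGFRA, were higher (LUM at 186 to 254 counts, against 59.9 to 93.8 in si-control), with COL1A2 at 0 to 1.42 and PTPRC at 0 in all SOX2 libraries. Blood and endothelial markers summed to 96.1 to 166 counts, against 379 to 397 in si-control. Whether this bears on the members was not tested.

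With NKX2-1 siRNAs the average hid a split between the 2 reagents. On average 6 of the 10 members were called, 4 lower (DUSP4, DUSP5, DUSP6 and ETV4) and 2 higher (SPRY1 and SPRY2), where 39.9% of all genes tested were called (18.5% higher and 21.4% lower). The members' median log2 change was -0.09, against -0.0043 over all genes. Groups did not overlap for 3 members (DUSP4, DUSP5 and ETV4), as for 33.9% of all genes. With equal library totals the split of all genes became 4225 higher and 2643 lower, against 3092 higher and 3592 lower with the deposited scaling, and the members' calls then gained SPRED2 (0.13, adjusted p = 0.0154).

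DUSP4, DUSP5 and ETV4 were lower with each NKX2-1 siRNA. DUSP4 had 5764 and 5926 counts with siRNA 1 and 6376 and 6263 with siRNA 2, against 9201, 9339.5 and 9143 in si-control (-0.60, SE 0.03, adjusted p = 3.79e-15). DUSP5 had 559.7 and 570.0 counts with siRNA 1 and 844 and 798 with siRNA 2, against 1098, 1167 and 1085 in si-control (-0.71, SE 0.06, adjusted p = 6.78e-10). ETV4 had 1352 and 1388 counts with siRNA 1 and 1494 and 1585 with siRNA 2, against 2007, 1813 and 1853 in si-control (-0.38, SE 0.04, adjusted p = 6.77e-08). For these 3 genes all 4 knockdown libraries lay below all 3 controls, and siRNA 1 gave the lower levels.

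DUSP6 moved in opposite directions with the 2 NKX2-1 siRNAs. It had 868 and 882 counts with siRNA 1 and 1735 and 1744 with siRNA 2, against 1409, 1427 and 1398 in si-control. Both pairs lay outside the range of the controls, siRNA 1 below and siRNA 2 above. Alone, siRNA 1 gave -0.69 (SE 0.05, adjusted p = 2.87e-11) and siRNA 2 gave 0.30 (SE 0.05, adjusted p = 5.03e-05). The average fall of 0.19 (SE 0.04, adjusted p = 0.000792) therefore describes neither reagent. The order of DUSP6 levels in the siRNA table, from low to high, was NKX2-1 siRNA 1, SOX2 siRNA 1, SOX2 siRNA 2, si-control and NKX2-1 siRNA 2, and of the neighbours SOX2 siRNA 2 and si-control did not differ by the test (adjusted p = 0.193).

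The Sprouty genes were also lower with NKX2-1 siRNA 1 than with siRNA 2. SPRY1 had 863 and 892 counts with NKX2-1 siRNA 1 and 1689.7 and 1745 with siRNA 2, against 983, 986 and 936 in si-control. It rose with siRNA 2 (0.83, SE 0.07, adjusted p = 1.38e-10) and was not called with siRNA 1 (-0.14, SE 0.07, adjusted p = 0.0936). SPRY2 had 557 and 612 counts with siRNA 1 and 703 and 732 with siRNA 2, against 519, 593 and 569 in si-control, and its average call (0.21, SE 0.07, adjusted p = 0.0144) was lost with siRNA 1 alone (0.06, adjusted p = 0.598) and without si-control replicate 1 (0.15, adjusted p = 0.112), NKX2-1 siRNA 1 replicate 2 (0.17, adjusted p = 0.0683) or NKX2-1 siRNA 2 replicate 2 (0.19, adjusted p = 0.0532). SPRY4 had 517 and 482 counts with siRNA 1 and 747 and 723 with siRNA 2, against 528, 573 and 609 in si-control. It was called with siRNA 2 (0.37, SE 0.08, adjusted p = 0.000657) and not with siRNA 1 (-0.19, SE 0.08, adjusted p = 0.0641) or on average (0.09, adjusted p = 0.300).

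The remaining members were close to their controls. SPRED2 had 1602 and 1651 counts with NKX2-1 siRNA 1 and 1995 and 1850.0 with siRNA 2, against 1737, 1688 and 1618 in si-control, and was called higher with siRNA 2 alone (0.19, adjusted p = 0.00454). SPRED1 had 789 and 759 counts with siRNA 1 and 769 and 844 with siRNA 2, against 855, 889.6 and 737 in si-control (-0.06, SE 0.06, adjusted p = 0.441). ETV5 had 1059.9 and 1085 counts with siRNA 1 and 1252 and 1214 with siRNA 2, against 1244, 1255 and 1226 in si-control. It was called lower with siRNA 1 alone (-0.21, adjusted p = 0.00235) and lay at the threshold on average (-0.11, SE 0.04, adjusted p = 0.0504).

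**Figure D3:**
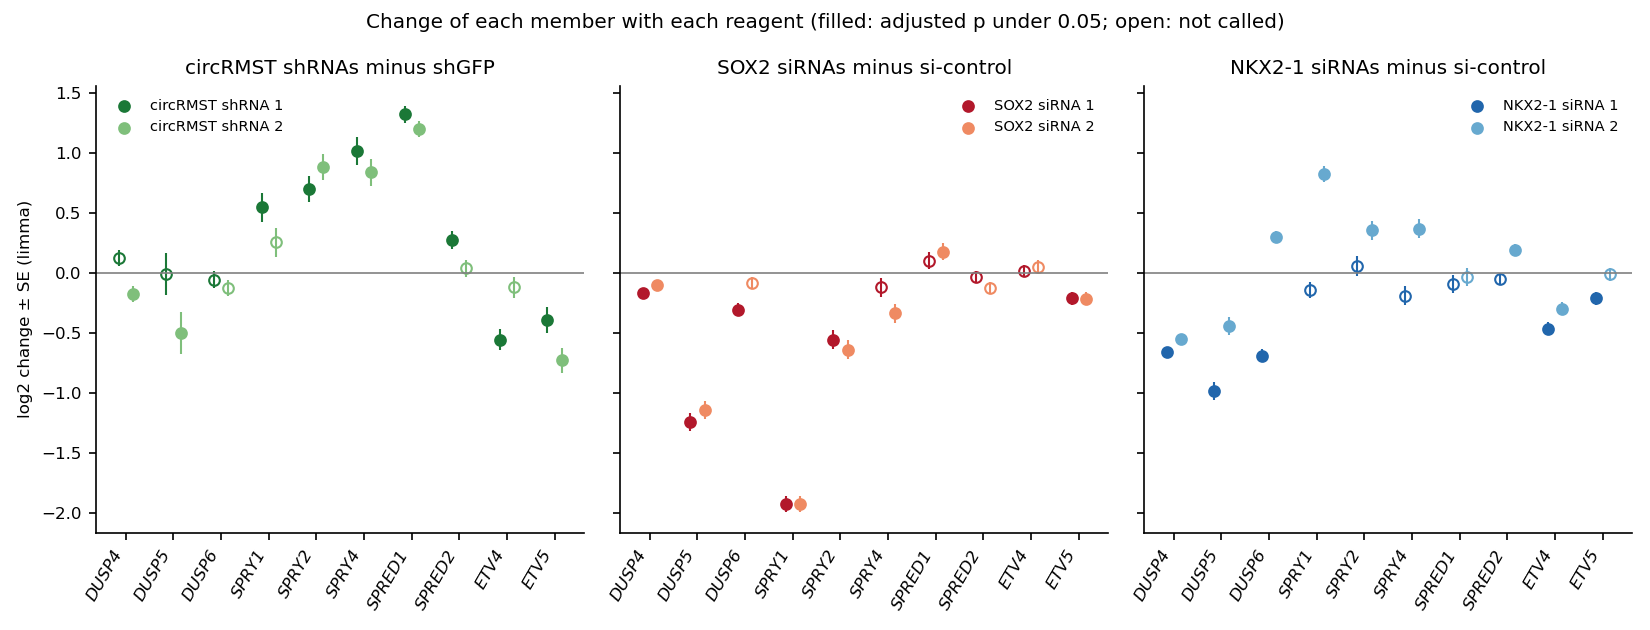
Log2 change (vertical axis) of each member (horizontal axis) with each reagent against its own control, with bars of 1 SE from limma, for circRMST, SOX2 and NKX2-1 knockdown. Filled points were called and open points were not; the 2 NKX2-1 siRNAs lay apart at DUSP6 (-0.69 and 0.30) and SPRY1 (-0.14 and 0.83), and the 2 SOX2 siRNAs lay on each other at SPRY1.

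The difference between the NKX2-1 siRNAs was tested directly. 9 of the 10 members were called lower with siRNA 1 than with siRNA 2, where 26.5% of all genes tested differed between the siRNAs, 11.7% higher and 14.8% lower with siRNA 1. With equal library totals 2884 genes were higher and 1760 lower with siRNA 1, against 1966 higher and 2481 lower with the deposited scaling; 6 members were then called lower, and DUSP4, ETV4 and ETV5 were not called. The difference was -0.99 for DUSP6 (SE 0.06, adjusted p = 4.00e-13), -0.97 for SPRY1 (SE 0.07, adjusted p = 8.27e-11), -0.56 for SPRY4 (SE 0.09, adjusted p = 1.82e-05) and -0.54 for DUSP5 (SE 0.08, adjusted p = 1.46e-05). For SPRY2 (-0.30), SPRED2 (-0.24), ETV5 (-0.20), ETV4 (-0.17) and DUSP4 (-0.11) it was smaller. SPRED1 was not called (-0.06, adjusted p = 0.657). Without NKX2-1 siRNA 1 replicate 1, which leaves the deepest library of the table as the only one with that siRNA, 5 members stayed called: DUSP5, DUSP6, SPRY1, SPRY4 and SPRED2. NKX2-1 RNA was itself higher with siRNA 1 than with siRNA 2 (0.31, SE 0.06, adjusted p = 0.000579), and SOX2 RNA was at 2263 and 2175 counts on average with siRNA 1 and 2 (0.06, adjusted p = 0.582). Of 9 neuroendocrine markers 7 were lower and 0 higher with siRNA 1 than with siRNA 2. Blood and endothelial markers summed to 179 to 191 counts with siRNA 1 and 475 to 507 with siRNA 2, mostly from PECAM1, at 128 to 139 and 404 to 414. The part of these markers in the members' difference was not tested. Alone, siRNA 1 gave 5 members lower and 0 higher (39.0% of all genes called, 17.4% higher and 21.5% lower). NKX2-1 siRNA 2 gave 3 lower and 5 higher (33.5% of all genes, 16.0% higher and 17.5% lower).

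List and marker counts are read beside the 39.9% of all genes tested that were called with NKX2-1 siRNAs (18.5% higher and 21.4% lower). In the pathway lists, NKX2-1 siRNAs on average lowered 4 of 6 tested phosphatase genes, DUSP8 by 1.14, DUSP1 by 0.77, DUSP10 by 0.35 and DUSP7. DUSP16 was raised on average. Alone, siRNA 1 gave 3 lower and 1 higher (39.0% of all genes called, 17.4% higher and 21.5% lower). With siRNA 2 alone 5 were lower and 0 higher (33.5% of all genes, 16.0% higher and 17.5% lower). DUSP7 was thus not called lower with siRNA 1 alone, nor DUSP16 higher with siRNA 2 alone. The largest difference between the siRNAs in this list was 2.23. Of 9 inhibitors 2 fell, ERRFI1 (-1.30) and SPRED3 (-0.52), and RASA1 rose (0.40). Of 20 cascade components 5 rose and 4 fell, among them FRS2 (-0.28), SHOC2 (-0.26) and SOS2 (0.25). FRS2 (-0.081) and SHOC2 (-0.075) were not called with siRNA 2 alone, and SOS2 (0.12) not with siRNA 1 alone. Of 11 other ERK targets 7 fell, among them LIF (-2.46), a cytokine gene, EGR1 (-1.06) and IER3 (-0.78), and 2 rose. EGR1 was lower with siRNA 1 alone (-2.22) and was not called with siRNA 2 alone (0.10, adjusted p = 0.249). Of the markers, 3 of 9 neuroendocrine genes were higher and 2 lower, and 1 of 3 tested fibroblast genes was higher (PDGFRA) and 1 lower (COL1A1). Of 10 FGF receptors and ligands 5 fell and 0 rose, among them FGF1 (-1.12), FGF19 (-0.69) and FGFR4 (-0.58). None of these 3 was called with siRNA 2 alone (FGF1 -0.80, FGF19 -0.20 and FGFR4 -0.36), where 1 gene of the list was called. The list medians were -0.28 (phosphatases), -0.02 (inhibitors), 0.03 (cascade), -0.43 (ERK targets) and -0.53 (FGF), beside -0.0043 over all genes. The SOX2 and NKX2-1 comparisons share the si-control libraries, so their lists are given side by side and no overlap between them was computed.

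**Figure D4:**
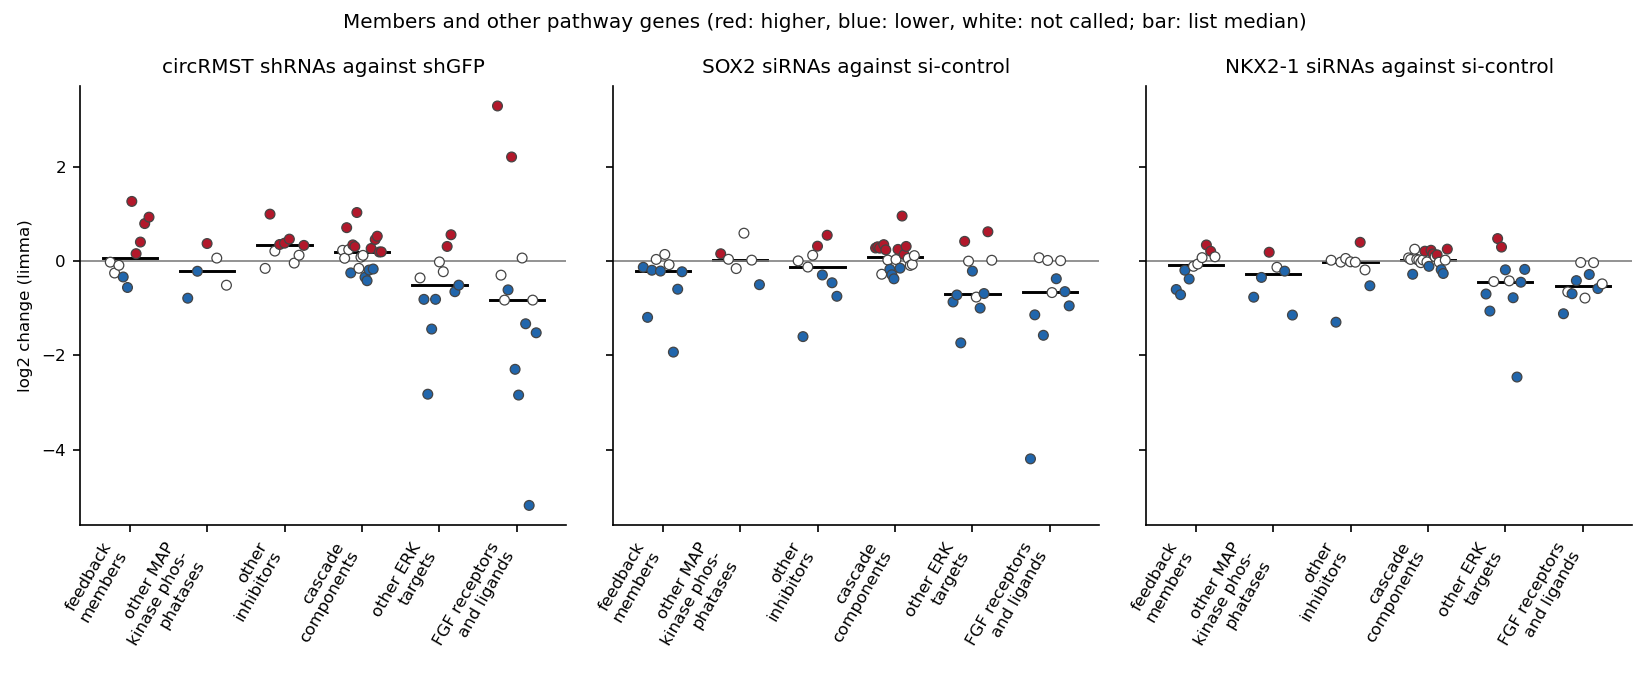
Log2 change (vertical axis) of the members and of the tested genes of 5 other pathway lists (horizontal axis) with circRMST shRNAs, SOX2 siRNAs and NKX2-1 siRNAs, each against its control. Red points were called higher, blue points lower and white points neither, and bars are list medians; the ERK target list had medians of -0.51, -0.69 and -0.43 and the cascade list medians of 0.19, 0.09 and 0.03, with its genes on both sides of 0.

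SOX2 siRNAs were also set directly against NKX2-1 siRNAs, a difference that takes in no control library, although si-control enters the estimate of spread. 9 of the 10 members were called, 3 higher and 6 lower with SOX2 siRNAs, where 55.8% of all genes tested were called (27.9% higher and 28.0% lower), and groups did not overlap for 6 members, as for 35.2% of all genes. SPRY1 was lower with SOX2 siRNAs by 2.27 (SE 0.05, adjusted p = 9.65e-23), a 4.83-fold difference, and SPRY2 (-0.80), DUSP5 (-0.48), SPRY4 (-0.32) and SPRED2 (-0.15) were also lower. DUSP4 (0.47, SE 0.03, adjusted p = 5.22e-14), ETV4 (0.42, SE 0.04, adjusted p = 1.46e-09) and SPRED1 (0.20, SE 0.06, adjusted p = 0.00309) were higher. ETV5 passed narrowly (-0.10, adjusted p = 0.0410) and was lost without si-control in the fit (adjusted p = 0.0609) and when any 1 of the 8 knockdown libraries was left out (adjusted p from 0.0534 to 0.121). Several of these calls did not hold for every pair of siRNAs. Against NKX2-1 siRNA 1, SPRY4 was not called with SOX2 siRNA 1 (0.071) or siRNA 2 (-0.15), nor was SPRED2 (0.017 and -0.075) or ETV5 (0.0015 and -0.0014), and DUSP5 was not called with SOX2 siRNA 2 (-0.16, adjusted p = 0.121). SPRED1 was not called between SOX2 siRNA 1 and NKX2-1 siRNA 2 (0.14, adjusted p = 0.164). The calls of SPRY1, SPRY2, DUSP4 and ETV4 held for all 4 pairs. The members' median was -0.13, against -0.0012 over all genes.

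DUSP6 did not differ in this comparison on average (0.0002, SE 0.04, adjusted p = 0.997), yet each pair of siRNAs differed. SOX2 siRNA 1 and 2 stood above NKX2-1 siRNA 1 by 0.39 and 0.61 and below NKX2-1 siRNA 2, with differences of -0.60 and -0.39. Each of these 4 differences was called, with adjusted p from 1.24e-09 to 3.58e-06.

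The counts of the other lists are read beside the 55.8% of all genes tested that were called (27.9% higher and 28.0% lower). Of these lists, 4 of 6 phosphatase genes were higher with SOX2 siRNAs than with NKX2-1 siRNAs, among them DUSP1 (0.92), DUSP8 (0.64) and DUSP10 (0.38), and 1 was lower. Of 9 inhibitors 2 were higher, among them NF1 (0.33), and 4 lower, among them ERRFI1 (-0.31) and RASA2 (-0.27). Of 20 cascade components 10 were higher, among them NRAS (0.86) and FRS2 (0.55), and 6 lower, among them the adaptor GAB1 (-0.53). Of 11 ERK targets 4 were higher, among them LIF (1.77) and MYC (1.07), and 4 lower, among them EPHA2 (-1.30). Of 10 FGF genes FGF19 was higher (0.76), and FGF1 (-3.08) and FGF21 (-1.16) were lower. Not every pair of siRNAs gave these calls: DUSP8 was lost in 1 of 4 pairs, ERRFI1 in 1, and RASA2, GAB1 and FGF19 in 2 each. The list medians were 0.51, -0.10, 0.10, -0.06 and -0.08, in the order phosphatases, inhibitors, cascade, ERK targets and FGF genes.

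Genes whose pattern was most like that of DUSP6 were sought over the 17 libraries, by the root mean square difference of log2 levels centred within each table. Of 12292 genes compared, the 5 nearest were ERO1B (0.119), SEMA3E (0.121), FOS (0.124), CPE (0.127) and TM9SF2 (0.128). FOS, an immediate early gene of the ERK pathway, had centred log2 levels of -0.55 and -0.52 with NKX2-1 siRNA 1 and 0.47 and 0.44 with siRNA 2, against 0.13, 0.16 and 0.14 in si-control. The other members lay farther from DUSP6, SPRED2 nearest at 0.235, with 609 genes closer, and SPRY1 farthest at 0.826, with 12155 closer. These genes were chosen for their closeness to DUSP6 in these same libraries, so their levels are a description, with no test.

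**Figure D5:**
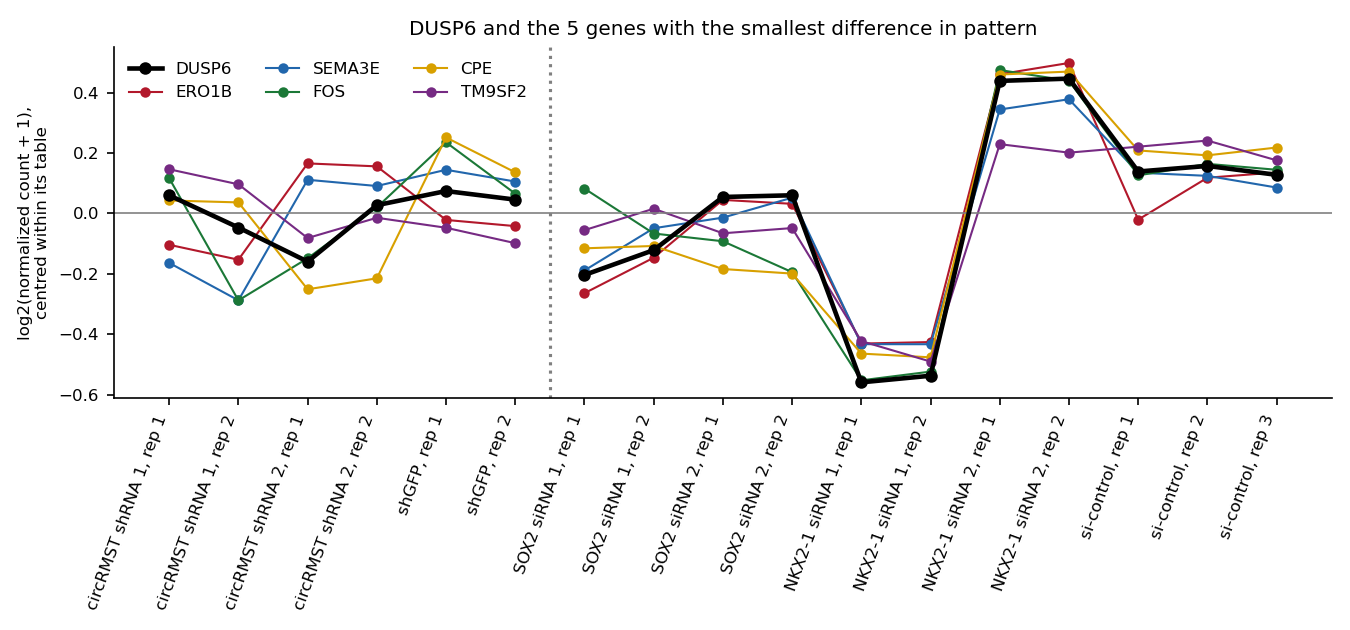
Log2 of the normalized count plus 1, centred on its mean within each table (vertical axis), for DUSP6 (black) and the 5 genes nearest to it, in the 17 libraries (horizontal axis), with the shRNA table left of the dotted line. The 5 genes were chosen for their closeness to DUSP6 in these libraries; FOS lay at -0.55 and -0.52 with NKX2-1 siRNA 1 and at 0.47 and 0.44 with siRNA 2.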

How the data were processed

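Of the 27 samples, the 17 RNA libraries were used; the 10 ChIP samples were not analysed here. RNA was sequenced as paired reads of 150 bases, per the labels' protocols, from a stranded total RNA kit (shRNA) or a poly(A) kit that does not mark strand (siRNA). Per the submitters' processing notes, cutadapt 2.5, STAR 2.5.2b, DESeq2 and hg38 were used; the counting tool and annotation are not given in the sources used here.

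The deposited signal values are normalized counts, and the submitters' processing notes name DESeq2, which divides counts by size factors. Whole reads were recovered for 100% of values (tolerance 0.05 reads). Non-human features (55 in the shRNA table, 38 in the siRNA table) and 7 and 11 Y copies of shared genes were left out. Tests took genes whose mean normalized count reached 10, with limma 3.58.1 (R 4.3.3) on log2(normalized count + 1), with 1 mean per reagent, a trended prior and Benjamini-Hochberg adjustment; log2 differences on this scale understate changes of low genes. The fit was also run on simulated counts with few changed genes and a spread common to all genes. That setting differs from these data, so the run does not show how the fit behaves on them. Count tests on the recovered reads used edgeR 4.0.16 (quasi-likelihood, TMM) and DESeq2 1.42.0. edgeR called 5025 genes higher and 5175 lower with circRMST shRNAs, 4552 and 4724 with SOX2 siRNAs, and 3185 and 3525 with NKX2-1 siRNAs. Replicate libraries differed by more than sampling noise (chi-square over degrees of freedom 5.36 to 6.02 and 1.52 to 5.78), so none was merged.

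Named genes are all members, the targeted genes, up to 3 genes with the largest change among the called genes of each pathway list, and the 5 genes nearest to DUSP6; other genes were named after their values were seen. The members and lists were chosen with earlier results of these data known. Symbols were matched for 98.5% of genes.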

Additional observations from a re-analysis of the deposited data

Results flagged for a closer look

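DUSP6 differed between the 2 NKX2-1 siRNAs by -0.99 on the log2 scale (siRNA 1 minus siRNA 2, limma adjusted p = 4.00e-13), and the siRNAs lay on opposite sides of si-control. The difference itself was tested, and over its alternatives it ran from -1.001 to -0.929. Groups held 2 or 3 libraries, too few to look for single libraries that stood apart.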

How the results depend on the processing

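The number of members called ran from 6 to 9 with circRMST shRNAs (7 as reported), 6 to 9 with SOX2 siRNAs (7), 5 to 8 with NKX2-1 siRNAs (6) and 6 to 10 between SOX2 and NKX2-1 siRNAs (9). Between the circRMST shRNAs it was 4, 0 with no filter and 2 to 3 with 1 library left out, between the SOX2 siRNAs 1 and 0 to 1, and between the NKX2-1 siRNAs 9 and 5 to 8. Of 571 values for called members in the 4 knockdown comparisons, 525 kept direction and call, 41 lost the call and 5 turned. Deviations of same-numbered libraries from their group means correlated at -0.04 to 0.05 (shRNA) and -0.11 to 0.02 (siRNA), so no pairing by number was seen. In groups of 2 these deviations mirror each other, so the check cannot tell whether same-numbered libraries were handled together. A replicate block called 6 members with circRMST shRNAs, 6 with SOX2 siRNAs, 6 with NKX2-1 siRNAs and 8 between them, losing SPRED2 (circRMST shRNAs, adjusted p = 0.0530), SPRY4 (SOX2 siRNAs, adjusted p = 0.0661) and ETV5 (between them, adjusted p = 0.0643). With shRNA 1 alone, the direction turned for DUSP4 0.13 (circRMST shRNAs against shGFP). With equal totals, the direction turned for DUSP4 -0.020 (circRMST shRNA 1 against shGFP), SPRED2 -0.11 (circRMST shRNA 2 against shGFP), SPRY1 -0.012 and ETV5 -0.010 (SOX2 siRNA 1 against SOX2 siRNA 2), SPRED2 0.042 (NKX2-1 siRNA 1 against si-control), ETV5 0.018 (NKX2-1 siRNA 2 against si-control), SPRED1 0.0035 (NKX2-1 siRNA 1 against NKX2-1 siRNA 2), DUSP6 -0.053 (SOX2 siRNAs against NKX2-1 siRNAs). With quantile normalization, the direction turned for SPRED2 -0.024 (circRMST shRNA 2 against shGFP), ETV4 -0.027 and RMST 0.069 (SOX2 siRNAs against si-control), ETV4 -0.044 (SOX2 siRNA 1 against si-control), ETV4 -0.0095 (SOX2 siRNA 2 against si-control), ETV5 0.0096 (NKX2-1 siRNA 2 against si-control), DUSP6 -0.041 (SOX2 siRNAs against NKX2-1 siRNAs). With siRNA 1 alone, the direction turned for MAP2K1 0.13 (SOX2 siRNAs against si-control), SPRY1 -0.14 and SPRY4 -0.19 and SPRED2 -0.047 (NKX2-1 siRNAs against si-control). With siRNA 2 alone, the direction turned for DUSP6 0.30 and EGR1 0.098 (NKX2-1 siRNAs against si-control). With the pair SOX2 siRNA 1 against NKX2-1 siRNA 2, the direction turned for DUSP6 -0.60 (SOX2 siRNAs against NKX2-1 siRNAs). With the pair SOX2 siRNA 2 against NKX2-1 siRNA 2, the direction turned for DUSP6 -0.39 (SOX2 siRNAs against NKX2-1 siRNAs). With pseudocount 5, the direction turned for DUSP6 -7.2e-05 (SOX2 siRNAs against NKX2-1 siRNAs). With edgeR, the direction turned for DUSP6 -0.0087 (SOX2 siRNAs against NKX2-1 siRNAs). With DESeq2, the direction turned for DUSP6 -0.0026 (SOX2 siRNAs against NKX2-1 siRNAs). With the pair SOX2 siRNA 1 against NKX2-1 siRNA 1, the direction turned for SPRY4 0.071 and SPRED2 0.017 and ETV5 0.0015 (SOX2 siRNAs against NKX2-1 siRNAs). Leaving out 1 library at a time turned the direction within these ranges: DUSP4 -0.13 to 0.084 (circRMST shRNAs against shGFP), DUSP5 -0.15 to 0.14 (circRMST shRNA 1 against shGFP), DUSP6 -0.11 to 2.95e-05 (circRMST shRNA 1 against shGFP), SPRED2 -0.030 to 0.11 (circRMST shRNA 2 against shGFP), DUSP6 -0.021 to 0.17 (circRMST shRNA 1 against circRMST shRNA 2), RMST -0.21 to 0.038 (SOX2 siRNAs against si-control), ETV4 -0.013 to 0.060 (SOX2 siRNA 1 against si-control), DUSP5 -0.21 to 0.011 (SOX2 siRNA 1 against SOX2 siRNA 2), SPRY1 -0.020 to 0.023 (SOX2 siRNA 1 against SOX2 siRNA 2), ETV5 -0.0023 to 0.0081 (SOX2 siRNA 1 against SOX2 siRNA 2), SPRY2 -0.0077 to 0.13 (NKX2-1 siRNA 1 against si-control), SPRED1 -0.11 to 0.034 (NKX2-1 siRNA 2 against si-control), ETV5 -0.032 to 0.012 (NKX2-1 siRNA 2 against si-control), SPRED1 -0.13 to 0.0094 (NKX2-1 siRNA 1 against NKX2-1 siRNA 2), DUSP6 -0.020 to 0.021 (SOX2 siRNAs against NKX2-1 siRNAs). The cause of these changes was not tested. Alternatives for single reagents, reagent differences, lists and genes outside the members were chosen after seeing the data. With no filter 4707 genes were called higher and 10409 lower with circRMST shRNAs. Over the alternatives the FGF list gave 4 to 14 calls with circRMST shRNAs (8 as reported), 3 to 7 with SOX2 siRNAs (6) and 1 to 7 with NKX2-1 siRNAs (5), and the phosphatase list gave 3 to 5 with NKX2-1 siRNAs (5).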
